A study of Caenorhabditis elegans with 6 samples.

Results

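The ugt genes of Caenorhabditis elegans encode UDP-glucuronosyltransferases, and their transcripts were compared between whole day 10 animals and whole L4 larvae. A gene was taken as a member where its WormBase identifier has, in the WBcel235 annotation, a symbol made of ugt and a number. This gave 67 of the 46940 features in the count table, all of them annotated as protein-coding, and every one held at least 1 read in the 6 libraries. Of the 67, 59 passed the filter on low counts and were tested, and the other 8 were not. The study compared 3 libraries from day 10 animals with 3 from L4, the last larval stage before adulthood. Animals of both ages were wild-type N2, the standard laboratory strain, untreated and grown at 20 °C, and the origin of the day count is not given in the sources used here. No young adults were sampled, so maturation and adult ageing cannot be told apart. The labels do not tell whether libraries of one age derive from independent cultures; the p-values reflect the variation among these 6 libraries, which could be technical.

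UDP-glycosyltransferases sit in the membrane of the endoplasmic reticulum and join a sugar from a UDP-sugar donor to a small lipophilic molecule. The product is more soluble in water and can be exported, which makes the enzymes part of the second phase of detoxification, after oxidation by cytochromes P450 and beside conjugation to glutathione. Nematodes often attach glucose rather than glucuronate, and C. elegans turns drugs such as albendazole into glucosides. Much of this metabolism is placed in the intestine. For most ugt genes the substrates are not known with certainty, so roles are given below only for a few.

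The libraries held 23257607 to 25616846 counts at day 10 and 19576201 to 23972794 counts in L4. Of 15956 genes tested across the whole table with edgeR's quasi-likelihood test, 85.4% differed between the ages at a Benjamini-Hochberg adjusted p under 0.05; 40.5% were higher and 45.0% lower at day 10. The median log2 fold change over all tested genes was −0.16 and moved with the scaling. Upper-quartile factors put it at −0.62, and size factors as DESeq2 computes them at 0.00. Markers of intestine, epidermis, muscle, neurons, glia, oocytes and sperm were all present in L4, as the whole-worm label says. At day 10 the epidermal collagen genes dpy-13, rol-6 and col-10 and the hedgehog-like gene wrt-2 were under 1 CPM, where CPM is the count scaled to a common library total after TMM scaling. Of the other epidermal markers lin-26 was higher at day 10, at 143 ± 0.887 CPM against 69.5 ± 0.777 CPM in L4 (SD, n = 3 each), and col-19 and nhr-23 were not called. In whole animals, fewer cells of a type and less RNA per cell cannot be told apart.

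As a family the ugt genes were lower at day 10. Their FPKM, which the authors deposited and which scale reads to gene length and library total, summed to 263, 249 and 241 in the day 10 libraries, against 848, 789 and 787 in the L4 libraries. The ages did not overlap, and the sum was 3.22-fold lower at day 10, at 251 ± 11.6 FPKM, against 808 ± 34.5 FPKM in L4 (SD, n = 3 each; two-sided exact permutation test, p = 0.1, the smallest that 3 against 3 can give). In raw reads the family took 4.45, 4.20 and 4.08 of every 10000 counts at day 10, against 14.5, 13.5 and 13.4 in L4. The sum did not rest on a single gene, since without ugt-62, the member with the highest mean, it was 244 ± 9.87 FPKM at day 10 and 723 ± 25.6 FPKM in L4.

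**Figure D1:**
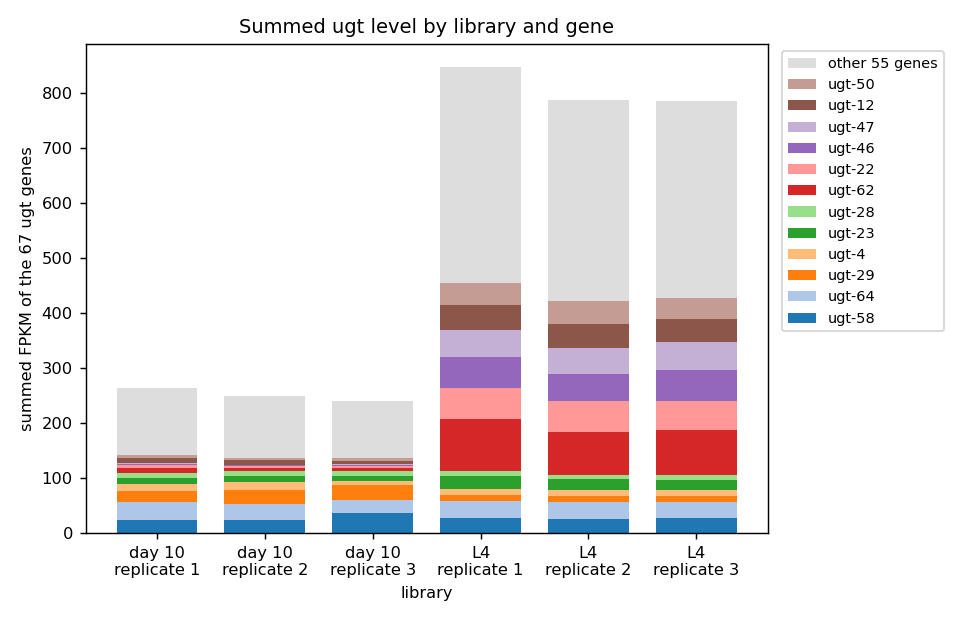
Summed FPKM of the 67 ugt genes in each library (bar height, linear axis from 0), split into the 6 members with the highest mean at each age and the other 55 genes. The 3 day 10 bars reach 241 to 263 FPKM and the 3 L4 bars 787 to 848 FPKM.

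Of the 59 tested members, 7 were higher and 37 lower at day 10 at edgeR's adjusted p under 0.05, and 15 did not pass. These are 11.9% higher and 62.7% lower, beside 40.5% and 45.0% over all tested genes. The share called in either direction was 74.6%, beside 85.4% over all. The median log2 fold change of the tested members was −1.59, beside −0.16 over all genes; upper-quartile factors gave −2.05 for the family, and size factors as DESeq2 computes them gave −1.43. At least 4-fold lower were 24 members (40.7%), beside 25.1% of all tested genes, and at least 4-fold higher were 3, where 12.4% of all genes were. For 44 of the 59, all day 10 values lay on one side of all L4 values, which was so for 87.6% of all genes. In the authors' deposited table, whose adjusted p under 0.05 marks 27.7% of its 24922 features with a p as higher and 26.8% as lower, 7 members were higher and 37 lower. Of the calls made here, 43 were called in the same direction in the authors' deposited table; the exception was ugt-37, and the table called ugt-67, which was not tested here, lower.

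**Figure D2:**
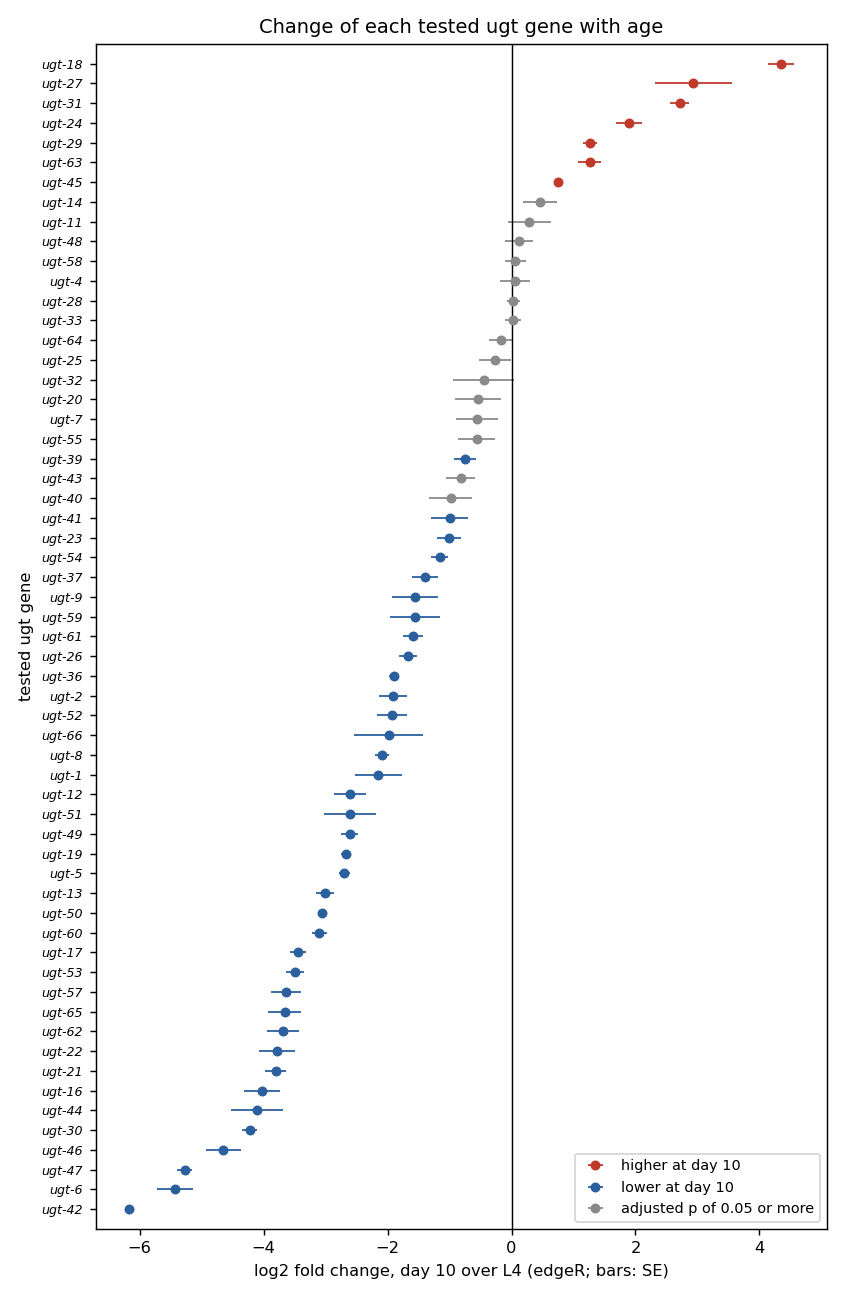
Log2 fold change of each of the 59 tested ugt genes, day 10 over L4, ranked; points are edgeR's estimates and bars the SE from log2(CPM + 0.5), with no bar for ugt-42. The 7 genes called higher span 0.75 to 4.35 and the 37 called lower span −0.75 to −6.17, and the 15 without a call span −0.98 to 0.46. For members near or below 0.5 CPM at an age, the added 0.5 makes the bars too short.

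The order of the members by level changed with age. In L4 the 6 highest members by mean FPKM were ugt-62, ugt-22, ugt-46, ugt-47, ugt-12 and ugt-50, and at day 10 they were ugt-58, ugt-64, ugt-29, ugt-4, ugt-23 and ugt-28. None was in both groups of 6, and 2 members were among the 10 highest at both ages. Above a mean of 10 FPKM stood 5 members at day 10 and 25 in L4, and the 5 were among the 25. Another 15 members were under 1 FPKM at both ages. Across the 67 members, mean FPKM at day 10 and in L4 had a Spearman rho of 0.66. This is given as a description, since genes are not independent replicates. Across all tested genes rho was 0.63. The 67 include members too low to be tested, so these values are not like for like. The 3 highest members made up 29.5%, 31.9% and 36.4% of the family sum in the day 10 libraries and 24.4%, 23.2% and 24.2% in the L4 libraries. FPKM rests on the gene length the authors used. For ugt-5, ugt-23, ugt-55, ugt-65 and ugt-67 it is shorter than the annotated coding sequence, so their levels may be too high relative to other members. The gap is small for ugt-23 and ugt-67, at 1571 and 1444 bases for 530 and 483 residues. Other members also have lengths below the annotated exon length, such as ugt-46 (1891 against 2909 bases) and ugt-24 (1652 against 2901 bases). The annotation used for counting is not given.

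The members with the highest L4 levels fell at day 10. The gene ugt-62 (WBGene00010904; chromosome III, 4537281 to 4540623 on WBcel235, reverse strand) had 8.28, 6.89 and 4.76 FPKM at day 10, against 95.5, 77.8 and 81.7 FPKM in L4. Its share of the family sum was 2.65% at day 10 and 10.5% in L4, and its log2 fold change was −3.68 ± 0.26 (SE; edgeR's adjusted p = 3.4e-06). The gene ugt-22 (WBGene00007455; IV, 13639260 to 13644567, forward strand), which has been linked to the response of C. elegans to albendazole, had 5.74, 3.31 and 3.04 FPKM at day 10, against 56.3, 56.4 and 54 FPKM in L4. That is a 13.8-fold lower level, a log2 fold change of −3.79 ± 0.29 (edgeR's adjusted p = 8.2e-06), and every day 10 library was below every L4 library.

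For ugt-46 (WBGene00015141; X, 525928 to 530289, reverse strand), the day 10 libraries had 1.98, 1.37 and 3.12 FPKM and the L4 libraries 55.4, 49.2 and 55.1 FPKM, a 25.2-fold fall (log2 fold change −4.65 ± 0.28, edgeR's adjusted p = 6.6e-07). For ugt-47 (WBGene00011006; V, 10096305 to 10098597, reverse strand), the values were 1.22, 1.05 and 1.58 FPKM at day 10 and 48.5, 47.0 and 51.4 FPKM in L4. This 38.5-fold fall had a log2 fold change of −5.27 ± 0.12 and edgeR's adjusted p = 2.6e-09, and ugt-47 stood 38th by level at day 10 and 4th in L4. In ugt-12 the fall was smaller, with 9.03, 7.67 and 5.11 FPKM at day 10 against 46.0, 43.4 and 42.3 FPKM in L4 (log2 fold change −2.60 ± 0.26, edgeR's adjusted p = 9.1e-06). In ugt-50 the libraries of an age lay close together, at 5.17, 4.69 and 4.94 FPKM at day 10 and 40.4, 42.6 and 38.4 FPKM in L4 (log2 fold change −3.05 ± 0.07, edgeR's adjusted p = 9.3e-09).

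Other large falls were in members with lower L4 levels. The gene ugt-6 (WBGene00013904; V, 12795481 to 12798224, reverse strand) had 0.463, 0.448 and 0.128 FPKM at day 10, against 14.9, 15.6 and 14.8 FPKM in L4. Its log2 fold change of −5.43 ± 0.29 was a 43.0-fold fall (edgeR's adjusted p = 4.1e-07), and day 10 replicate 3 lay below replicates 1 and 2. The SEs of ugt-6 and ugt-30 are too small. Their day 10 means were 0.589 and 0.418 CPM, where the 0.5 added to CPM damps the spread. The gene ugt-30 had 0.155, 0.292 and 0.268 FPKM at day 10 and 4.37, 4.37 and 4.52 FPKM in L4 (log2 fold change −4.22 ± 0.12, edgeR's adjusted p = 4.3e-07). The gene ugt-44 had 1.29, 2.25 and 1.42 FPKM at day 10 and 44.1, 20.5 and 20.6 FPKM in L4, where replicate 1 stood apart, and the ages did not overlap (log2 fold change −4.11 ± 0.42, edgeR's adjusted p = 0.000114).

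Levels of ugt-16 were 0.700, 0.312 and 0.891 FPKM at day 10 and 11, 9.72 and 9.79 FPKM in L4, 16.3-fold lower at day 10 (log2 fold change −4.02 ± 0.29, edgeR's adjusted p = 1.4e-06). Levels of ugt-21 were 1.16, 0.708 and 0.894 FPKM at day 10 and 13.8, 12.8 and 11.8 FPKM in L4 (log2 fold change −3.80 ± 0.17, edgeR's adjusted p = 1.9e-07). The lowest fitted log2 fold change among tested members belonged to a rare transcript: ugt-42 had 1, 0 and 0 counts at day 10 and 33, 26 and 26 counts in L4, a level 100-fold lower at day 10 with an exact 95% counting interval from 17.5 to 4004, which takes in the 43.0-fold of ugt-6. Leaving out day 10 replicate 1, which held the single count, turned the fitted log2 fold change of −6.17 into −7.93. The gene ugt-65 had 2, 15 and 6 counts at day 10, and leaving out replicate 2 turned its log2 fold change of −3.66 into −4.55.

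The 7 members that rose were mostly low in L4. The gene ugt-18 (WBGene00013900; V, 12820260 to 12822778, forward strand) had 2.87, 4.10 and 4.32 FPKM at day 10 against 0.275, 0.150 and 0.120 FPKM in L4, where it held 9, 6 and 4 counts. Its 20.3-fold rise, a log2 fold change of 4.35 ± 0.21, had edgeR's adjusted p = 2.2e-06, and it stood 20th by level at day 10 and 61st in L4. The gene ugt-31 (WBGene00021464; I, 2333338 to 2338693, forward strand) had 8.84, 7.62 and 9.84 FPKM at day 10 against 1.04, 1.47 and 1.44 FPKM in L4 (log2 fold change 2.71 ± 0.16, edgeR's adjusted p = 1.4e-06), and stood 7th at day 10 and 46th in L4.

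The rise of ugt-27 was uneven. Its libraries had 3.81, 3.71 and 0.915 FPKM at day 10 and 0.512, 0.235 and 0.377 FPKM in L4, with day 10 replicate 3 below the other day 10 libraries and above all L4 libraries (log2 fold change 2.93 ± 0.62, edgeR's adjusted p = 0.00266). The gene ugt-24 was even at day 10, with 4.84, 4.90 and 5.05 FPKM at day 10 and 0.897, 1.57 and 1.43 FPKM in L4 (log2 fold change 1.90 ± 0.21, edgeR's adjusted p = 4.7e-05). The abundant member that rose was ugt-29 (WBGene00021709; V, 696524 to 699589, reverse strand), with 20.8, 26.2 and 27.9 FPKM at day 10 against 10.3, 9.71 and 10.7 FPKM in L4. It rose 2.41-fold (log2 fold change 1.27 ± 0.11, edgeR's adjusted p = 4.8e-06), and its share of the family sum was 9.94% at day 10 and 1.26% in L4.

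The smallest rises were those of ugt-63 and ugt-45, and both calls were lost with upper-quartile factors. The gene ugt-63 had 0.925, 0.712 and 1.10 FPKM at day 10 and 0.295, 0.321 and 0.515 FPKM in L4, from 37, 28 and 40 counts at day 10 and 9, 12 and 16 in L4. Its log2 fold change was 1.26 ± 0.18 (edgeR's adjusted p = 0.00721). Upper-quartile factors gave 0.81 and an adjusted p of 0.0522. The gene ugt-45 had 8.36, 9.17 and 8.61 FPKM at day 10 and 5.42, 4.75 and 5.24 FPKM in L4, a 1.68-fold difference (log2 fold change 0.75 ± 0.07, edgeR's adjusted p = 0.000464). Upper-quartile factors gave 0.30 and an adjusted p of 0.052.

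**Figure D3:**
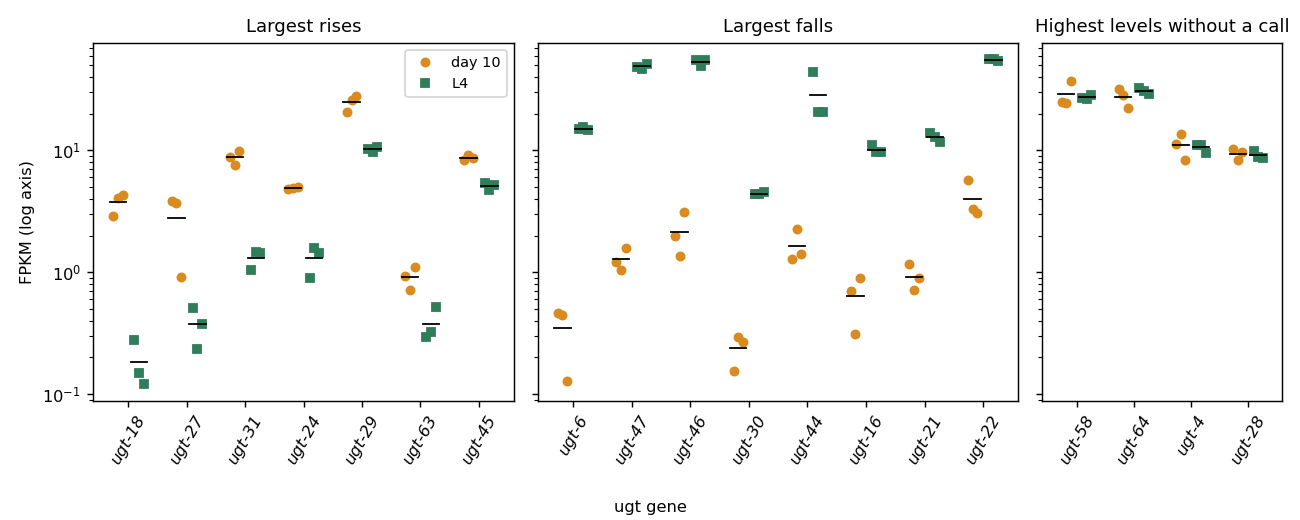
FPKM of single libraries (log axis; circles day 10, squares L4, lines the mean of 3) for the 7 ugt genes that rose, the 8 with the largest falls at a mean of at least 1 CPM, and the 4 without a call among the 6 highest at day 10. In the first 2 panels the ages do not overlap, as for ugt-47 at 1.05 to 1.58 FPKM at day 10 and 47.0 to 51.4 FPKM in L4; in the last panel they do.

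The 2 most abundant members at day 10, ugt-58 and ugt-64, differed little from L4, while the third, ugt-29, is the one that rose 2.41-fold. The gene ugt-58 (WBGene00009450; II, 9584384 to 9586784, reverse strand) had 24.9, 24.5 and 37.4 FPKM at day 10 and 26.9, 26.4 and 28.5 FPKM in L4 (log2 fold change 0.06 ± 0.17, edgeR's adjusted p = 0.67). The gene ugt-64 (WBGene00015577; V, 3503080 to 3506352, reverse strand) had 32.1, 28.6 and 22.4 FPKM at day 10 and 32.5, 31 and 29.3 FPKM in L4 (log2 fold change −0.17 ± 0.19, edgeR's adjusted p = 0.298). As the rest of the family was lower, their shares of the family sum were 11.5% and 11% at day 10 and 3.37% and 3.83% in L4. Both passed the test as lower with upper-quartile factors, at log2 fold changes of −0.38 and −0.62, so small differences here depend on the scaling.

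Of the others among the 6 highest at day 10, ugt-4 and ugt-28 were close between the ages. The gene ugt-4 had 11.3, 13.7 and 8.31 FPKM at day 10 and 11.1, 11.1 and 9.56 FPKM in L4 (log2 fold change 0.06 ± 0.24, edgeR's adjusted p = 0.78). Leaving out day 10 replicate 3 gave 0.28 and an adjusted p of 0.041. The gene ugt-28 had 10.3, 8.29 and 9.65 FPKM at day 10 and 9.84, 8.90 and 8.63 FPKM in L4 (log2 fold change 0.03 ± 0.10, edgeR's adjusted p = 0.819). Upper-quartile factors gave −0.42 and an adjusted p of 0.0112. In contrast ugt-23, among the 6 highest at day 10, was 2.02-fold lower there, with 11.1, 11.2 and 8.10 FPKM at day 10 against 22.6, 19.7 and 18.8 FPKM in L4 (log2 fold change −1.01 ± 0.19, edgeR's adjusted p = 0.00029).

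The 11 other members without a call had means of 0.218 to 6.90 FPKM at day 10 and 0.422 to 6.58 FPKM in L4. At the upper end, ugt-48 had 5.73, 5.81 and 9.16 FPKM at day 10 and 7.47, 5.56 and 5.79 FPKM in L4 (log2 fold change 0.12 ± 0.22, edgeR's adjusted p = 0.598), and ugt-25 had 6.03, 6.52 and 3.88 FPKM at day 10 and 6.20, 7.02 and 6.52 FPKM in L4 (−0.27 ± 0.26, edgeR's adjusted p = 0.268). The genes ugt-48 and ugt-25 share 121 and 26 exon bases with cft-1 and mlst-8 on the other strand. Reads from there cannot be told apart unless counting used the strand, which is not given in the sources used here.

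In several of these members day 10 replicate 3 stood apart. In ugt-32 that library had 0.760 FPKM beside 2.37 and 2.03 in replicates 1 and 2, and the L4 libraries had 1.74, 2.21 and 3.14 FPKM (log2 fold change −0.45 ± 0.49, edgeR's adjusted p = 0.337). In ugt-7 it was the highest, with 1.15, 0.748 and 2.11 FPKM at day 10 and 1.76, 2.17 and 1.83 FPKM in L4; the log2 fold change was −0.56 ± 0.34 (edgeR's adjusted p = 0.154), where leaving out that library gave −0.98 and an adjusted p of 0.00378. In ugt-11 it was the lowest, with 1.53, 1.35 and 0.658 FPKM at day 10 and 1.10, 1.06 and 0.712 FPKM in L4; the log2 fold change was 0.29 ± 0.35 (edgeR's adjusted p = 0.469), where leaving it out gave 0.62 and an adjusted p of 0.0431.

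The same held for ugt-14 and ugt-40. For ugt-14, levels were 0.960, 1.25 and 0.555 FPKM at day 10 and 0.754, 0.667 and 0.587 FPKM in L4, with a log2 fold change of 0.46 ± 0.28 (edgeR's adjusted p = 0.256), where leaving out day 10 replicate 3 gave 0.76 and an adjusted p of 0.0303. For ugt-40, levels were 0.113, 0.0919 and 0.448 FPKM at day 10 and 0.473, 0.241 and 0.552 FPKM in L4, with a log2 fold change of −0.98 ± 0.35 (edgeR's adjusted p = 0.16), where leaving out that library gave −1.95 and an adjusted p of 0.0079. The gene ugt-40 overlaps its neighbour ugt-37 by 42 exon bases on the same strand, and both are near 10 counts a library. At these levels the SEs given are too small, since the 0.5 added to CPM damps the spread. The call of ugt-37 as lower (log2 fold change −1.40 ± 0.21, edgeR's adjusted p = 0.0219) was lost without day 10 replicate 3 (adjusted p = 0.0648) and without L4 replicate 1 (adjusted p = 0.0895).

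The last 4 without a call were of low level. The gene ugt-33 had 1.04, 0.986 and 0.990 FPKM at day 10 and 1.21, 0.935 and 0.822 FPKM in L4 (log2 fold change 0.02 ± 0.13, edgeR's adjusted p = 0.956). The gene ugt-20 had 1.32, 1.08 and 0.495 FPKM at day 10 and 1.76, 1.39 and 1.09 FPKM in L4 (−0.54 ± 0.37, edgeR's adjusted p = 0.209). The gene ugt-55 had 0.844, 0.305 and 0.690 FPKM at day 10 and 0.712, 0.814 and 1.16 FPKM in L4 (−0.56 ± 0.30, edgeR's adjusted p = 0.226), and ugt-43 had 0.400, 0.287 and 0.156 FPKM at day 10 and 0.523, 0.603 and 0.363 FPKM in L4 (−0.82 ± 0.23, edgeR's adjusted p = 0.103, and 0.0498 without day 10 replicate 1). A p above the threshold does not show that these levels were equal.

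Beside these and ugt-42, another 24 members called lower spanned log2 fold changes of −0.75 to −3.66. Among them, ugt-17 at 3.46 ± 0.446 FPKM at day 10 and 37.4 ± 1.02 FPKM in L4, and ugt-49 at 5.98 ± 0.895 and 36.2 ± 1.26 FPKM, had the highest L4 means (SD, n = 3 each). The gene ugt-66 was uneven at day 10, at 3.10 ± 1.79 FPKM against 12.3 ± 2.76 FPKM in L4, and its log2 fold change of −1.98 had an SE of 0.56. The call of ugt-59 as lower (log2 fold change −1.56 ± 0.40, edgeR's adjusted p = 0.018) rested on 4, 26 and 20 counts at day 10 and 45, 38 and 42 in L4. It was lost without L4 replicate 1 (adjusted p = 0.0607) and without L4 replicate 3 (adjusted p = 0.0525). This gene shares 22 exon bases on the other strand with the abundant sir-2.1. The 8 members that were not tested were ugt-3, ugt-10, ugt-15, ugt-34, ugt-35, ugt-38, ugt-56 and ugt-67, each with at most 15 counts in any library. The gene ugt-67 had 0 counts at day 10 and 4, 11 and 7 in L4, at least 8.65-fold lower when 3 counts over the pooled day 10 libraries are taken as the floor. The gene ugt-38 had 3, 1 and 3 counts at day 10 and 0 in L4, at least 1.98-fold higher by the same floor over the pooled L4 libraries. These bounds allow for counting error only at the age with 0 counts and take the counts of the other age as they are. The interval of ugt-42 covers counting error only.

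Day 10 libraries varied more among themselves than L4 libraries. The median coefficient of variation of the 59 tested members was 28.6% at day 10 and 7.49% in L4, where over all tested genes it was 15.5% and 7.44%. These values were not matched for level. Counting error raises this coefficient at low counts, and most members held fewer counts at day 10. Its part in the 28.6% was not tested. Day 10 replicate 3 was the lowest day 10 library for 31 of the 59 members (52.5%), beside 37.6% of all tested genes. The 14 intestine markers summed to 1798, 1639 and 1059 CPM in day 10 replicates 1, 2 and 3, and to 6052, 6358 and 6146 CPM in the L4 libraries; oocyte and embryo markers summed to 12965, 12168 and 9062 CPM and to 755, 735 and 721 CPM. Without day 10 replicate 3, 10 members were higher and 38 lower.

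Most of the family lies on chromosome V. That chromosome held 42 of the 67 members (62.7%), beside 25.0% of all annotated protein-coding genes, and chromosomes I, II, III, IV and X held 5, 1, 3, 12 and 4. The predicted proteins were alike in length, with 483 to 558 residues in the longest annotated form and a median of 530, encoded in 4 to 11 exons. On chromosome V, 3 of 34 tested members were higher and 21 lower at day 10; on IV the counts were 2 and 8 of 12, on I they were 2 and 1 of 5, and all 4 on X and all 3 on III were lower. The single member on II, ugt-58, had no call. Among all tested genes 40.5% were higher and 45.0% lower at day 10. Shares for all genes of each chromosome were not computed, so these counts do not show a difference between chromosomes.

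Neighbouring members differed in some runs and fell together in others, and whether they differ more than members lying apart was not tested. Taking members less than 10 kb apart as a run, 37 members lay in 11 runs of 2 to 8 genes and 30 lay alone. Of the tested members in runs, 2 of 29 were higher and 18 lower (median log2 fold change −1.55). Of those alone 5 of 30 were higher and 19 lower (median −1.76). These counts stand beside 40.5% higher and 45.0% lower among all tested genes. Of the 17 pairs of adjacent tested members in a run, 4 pairs were both lower, none was both higher and 2 went in opposite directions; the members of a pair lay a median of 2.55 apart on the log2 scale, and 10 pairs lay over 2 apart.

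One opposed pair was ugt-18 and ugt-16, which lie on the same strand of chromosome V within 9.86 kb, together with ugt-15. While ugt-18 stood at 4.35 on the log2 fold change scale, ugt-16 stood at −4.02, and ugt-15 had 5, 7 and 6 counts at day 10 and 4, 3 and 3 in L4. The other was on chromosome I, where ugt-26, ugt-27, ugt-28 and ugt-25 follow each other on the forward strand within 14.1 kb. Their log2 fold changes were −1.67, 2.93, 0.03 and −0.27 in that order, so that the first fell, the next rose and the last 2 had no call. In the run of ugt-5, ugt-4, ugt-6 and ugt-3 (9.60 kb), ugt-4 had no call between ugt-5 at −2.70 ± 0.09 and ugt-6 at −5.43 ± 0.29.

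The longest run by members had 8 genes in 24.2 kb on chromosome V (4887165 to 4911399), of which 6 were tested. There ugt-12, ugt-9, ugt-8 and ugt-13 were lower, at −2.60, −1.55, −2.09 and −3.01, and ugt-11 and ugt-14 between them had no call. In the run of 6 from ugt-40 to ugt-36 (29.8 kb), the 5 tested members were at −0.75 to −1.89. Pairs that fell together were ugt-47 with ugt-17, at −5.27 and −3.44, and ugt-1 with ugt-2, at −2.15 and −1.91. Reads of near-identical copies can be dropped or given to the wrong gene, and how the counting treated them is not given in the sources used here. Identity between members was not measured here.

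**Figure D4:**
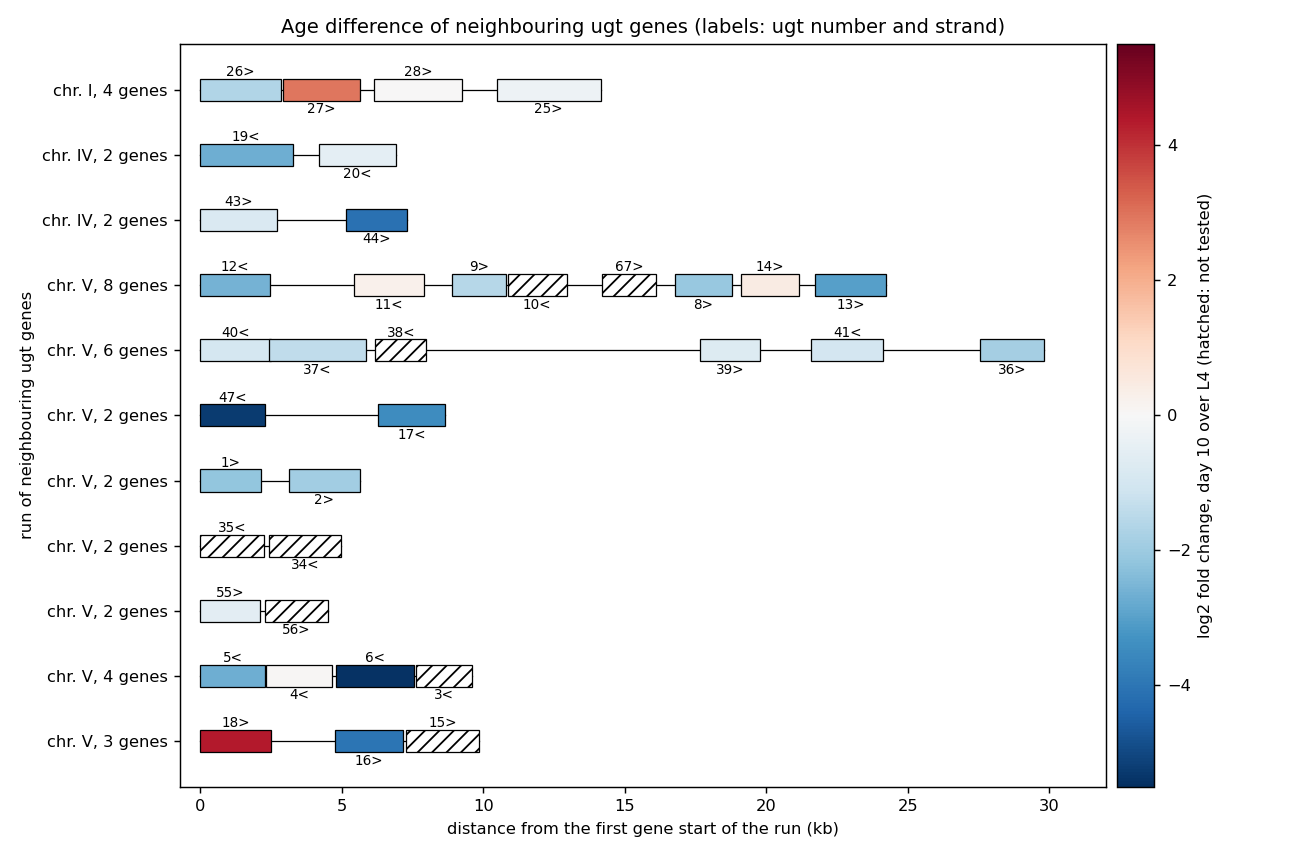
The 11 runs of neighbouring ugt genes (rows), drawn to scale as distance from the first gene start of the run in kb; each box is a gene, labelled with its ugt number and an arrow for its strand, coloured by log2 fold change, day 10 over L4, and hatched where not tested. In the bottom row ugt-18 at 4.35 lies beside ugt-16 at −4.02, and in the top row ugt-27 at 2.93 lies beside ugt-26 at −1.67.

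The other large families of detoxifying enzymes were mixed too. Of 60 tested cytochrome P450 genes with cyp symbols, 17 were higher and 33 lower at day 10 (28.3% and 55.0%, beside 40.5% and 45.0% over all tested genes), with a median log2 fold change of −1.05. Their summed level was 660, 601 and 531 CPM at day 10, against 622, 631 and 624 CPM in L4, while the ugt genes summed to 454, 427 and 389 CPM at day 10, against 1439, 1376 and 1346 CPM in L4. The cyp genes with the highest levels that rose were cyp-31A2 and cyp-31A3, which are known for the lipids of the eggshell. They had 127 ± 18.8 and 72.2 ± 7.16 CPM at day 10, against 11.9 ± 0.73 and 15.1 ± 0.443 CPM in L4 (SD, n = 3). The most abundant that fell were cyp-35A2, known to be induced by xenobiotics, and cyp-42A1, with log2 fold changes of −2.97 ± 0.23 and −3.06 ± 0.08. Of 36 tested glutathione S-transferases with gst symbols, 8 were higher and 23 lower (22.2% and 63.9%), with a median of −1.57; gst-1 and gst-7 rose by 0.80 ± 0.13 and 1.65 ± 0.13 and gst-27 and gst-10 fell, at −4.64 ± 0.29 and −4.67 ± 0.39. Whether the families differ in their share of falls was not tested.

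Genes of glycosaminoglycan synthesis, another pathway that draws on UDP-glucuronate, were higher at day 10. All 9 genes of the list, sqv-1 to sqv-8 and mig-22, which act in the synthesis of chondroitin and heparan sulfate, were higher at day 10 and did not overlap between the ages (median log2 fold change 1.46). Over all tested genes, 40.5% were higher at day 10 and 87.6% did not overlap between the ages. The UDP-glucose dehydrogenase sqv-4, which makes UDP-glucuronate, had 191 ± 34.2 CPM at day 10 and 94.5 ± 1.72 CPM in L4 (log2 fold change 1.02 ± 0.15, edgeR's adjusted p = 7.5e-05). The chondroitin synthase sqv-5 had 356 ± 29.8 CPM at day 10 and 60.8 ± 3.45 CPM in L4 (log2 fold change 2.55 ± 0.09, edgeR's adjusted p = 1.1e-08). Chondroitin is known to be needed in the early embryo. Oocyte and embryo markers were 12 of 12 higher at day 10, and their part in these rises was not tested.

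Of 18 regulators linked to detoxification or to intestinal genes, 5 were higher and 7 lower at day 10. These are 27.8% and 38.9%, beside 40.5% and 45.0% over all tested genes, and upper-quartile factors called 17 of the 18 where TMM called 12. Higher were skn-1, the Nrf homologue that drives many conjugation enzymes, at 305 ± 4.38 CPM at day 10 and 112 ± 5.31 CPM in L4 (log2 fold change 1.44 ± 0.04), and the FOXO factor daf-16 at 206 ± 9.14 and 119 ± 4.33 CPM (0.79 ± 0.05). The gene wdr-23, whose product restrains SKN-1, was also higher, at 1.08 ± 0.05, and skn-1 is itself among the oocyte and embryo markers, since its product specifies embryonic cells. The most abundant of the lower genes were hlh-30, a TFEB homologue that is, like elt-2 and elt-7, on this list and among the intestine markers, at −0.35 ± 0.10, and the steroid receptor daf-12, at −1.20 ± 0.06. The nuclear receptors were split. Higher were nhr-49, at 155 ± 2.92 CPM at day 10 and 94.6 ± 2.05 CPM in L4, and nhr-86, at 54.5 ± 1.09 CPM at day 10 and 26.5 ± 2.27 CPM in L4. Lower beside daf-12 were nhr-8, known for xenobiotic resistance, at 5.44 ± 1.25 CPM at day 10 and 17.2 ± 3.37 CPM in L4, nhr-114, at 2.28 ± 0.4 CPM at day 10 and 34.4 ± 2.94 CPM in L4, and nhr-176, at 1.66 ± 0.488 CPM at day 10 and 8.57 ± 1.65 CPM in L4. Those beside daf-12 were chosen after their values were seen, and nhr-28 and nhr-48 were not called.

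Of 22 ABC transporters of the pgp and mrp groups, which export drugs and conjugates, 9 were higher and 10 lower. Their 40.9% and 45.5% are near the 40.5% and 45.0% of all tested genes. The most abundant that rose, mrp-7 and mrp-4, had 278 ± 26.1 and 261 ± 53.5 CPM at day 10, against 75.6 ± 4.04 and 41.7 ± 0.814 CPM in L4. The most abundant that fell, mrp-5, known as a haem exporter, and pgp-2, known from gut granules, had 233 ± 4.93 and 21.3 ± 2.21 CPM at day 10, against 389 ± 10.8 and 145 ± 2.41 CPM in L4.

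Most intestine markers were lower at day 10, like most markers of the other somatic tissues and of sperm. Of the 14 intestine markers, 12 were lower at day 10 and none higher by edgeR's test (median log2 fold change −2.10), and none of the 14 was at 0 in any library. Over all tested genes, 45.0% were lower and 40.5% higher. The intestinal GATA factors elt-2 and elt-7 were at −0.88 ± 0.18 and −1.44 ± 0.28, and the structural genes act-5 and ifb-2 at −2.92 ± 0.14 and −3.09 ± 0.05. Muscle markers were 10 of 10 lower, epidermal markers 8 of 11 lower and 1 higher, neuronal markers 10 of 12 lower and 1 higher, glial and excretory markers 5 of 9 lower and 3 higher, and sperm markers 12 of 12 lower. In CPM, day 10 against L4, these 5 lists summed to 559 to 666 against 14652 to 15773, 273 to 305 against 4510 to 4688, 492 to 547 against 698 to 723, 341 to 366 against 520 to 571, and 23.2 to 38 against 922 to 933. The part of any of these tissues in the falls of the ugt genes was not tested.

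**Figure D5:**
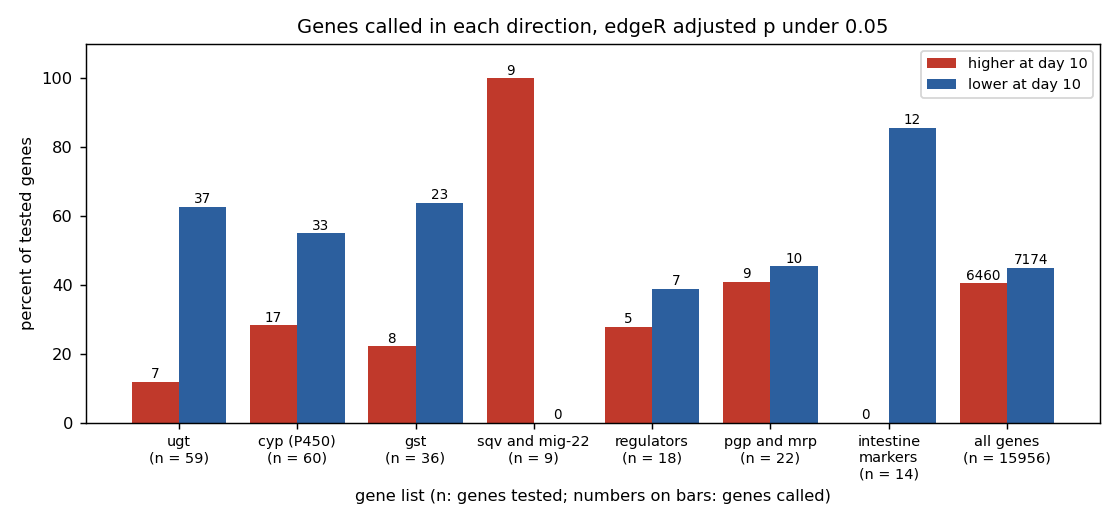
Percent of tested genes called higher (left bar) and lower (right bar) at day 10 in each list, from edgeR's test across all genes; numbers on bars are genes called. The ugt bars stand at 11.9% higher and 62.7% lower, and those of all 15956 tested genes at 40.5% and 45.0%.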

How the data were processed

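The authors deposited raw read counts per gene, FPKM values, and a table comparing the ages with means of scaled counts (a signal), p-values and adjusted p-values; the test behind these is not given in the sources used here. The submitters' processing notes name CASAVA 1.8, HISAT2 and HTSeq; for build, annotation and strand setting, what was used is not given in the sources used here. The deposited FPKM could be rebuilt from counts, library totals and 1 length per gene (largest relative difference 8.3e-08). That table's log2 fold changes hold spreadsheet errors and were not used. Symbols and coordinates are from the Ensembl 115 annotation of WBcel235, whose exon lengths equal the authors' for 37.4% of genes.

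Counts were tested with edgeR 4.0.16 in R 4.3.3, day 10 against L4: TMM scaling, filterByExpr at its defaults, the quasi-likelihood test with robust dispersions, no replicate block, Benjamini-Hochberg adjustment over all genes tested. SEs come from log2(CPM + 0.5) within ages. Near or below 0.5 CPM the added 0.5 damps the spread, so SEs there are too small beside edgeR's fold changes. Examples are ugt-6, ugt-30, ugt-37, ugt-40 and ugt-43, with day 10 means of 0.589, 0.418, 0.268, 0.366 and 0.469 CPM. The steps were checked on simulated counts in which few genes changed, equally in both directions. Most genes differ in these data, so that check does not bear on the choice of scaling. Alternatives were 3 other scalings, 2 other filters, no robust option, the replicate block, DESeq2 1.42.0 and each library left out; for the summed FPKM, the sum without its highest member and a sum rescaled by TMM factors. Values were given in full for the 8 largest called changes each way (7 rises exist) at a mean of at least 1 CPM without overlap, the 6 highest FPKM means per age and members without a call, and for the 2 most abundant called genes each way of the pathway lists. Members, lists, runs and this rule were chosen with earlier results of these data known. The 2 listed genes pgp-15 and bus-8 had no match. Promoter and protein sequences were not used here, so the planned searches of promoters and comparisons of proteins were not run.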

Additional observations from a re-analysis of the deposited data

How the results depend on the processing

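Under each single alternative, 42 to 44 of the 44 members called were called again, and none changed sign. With at least 1 CPM in 3 libraries, ugt-37 was not tested. The calls lost were ugt-45 and ugt-63 with upper-quartile factors, ugt-37 with DESeq2 and without day 10 replicate 3 or L4 replicate 1, and ugt-59 without L4 replicate 1 or 3. With upper-quartile factors 5 members were higher and 45 lower, and ugt-7, ugt-20, ugt-25, ugt-28, ugt-43, ugt-55, ugt-58 and ugt-64 passed as lower. The family median of −1.59 was −1.43 with DESeq2's size factors, with DESeq2 and without a filter, −2.05 with upper-quartile factors and −1.80 with at least 1 CPM in 3 libraries; over the libraries left out it ran between −1.76 and −1.52. The median of all genes was 0.14 without a filter. With the replicate block 44 members were called, 7 higher and 37 lower. Deviations from the age means correlated at 0.02, 0.007 and 0.02 between same-numbered libraries, and at −0.019 to 0.002 between the others. With 3 libraries an age, these values cannot tell whether the samples were paired. Signs changed only in members without a call. With upper-quartile factors ugt-4, ugt-11, ugt-28, ugt-33, ugt-48 and ugt-58 were at −0.39, −0.16, −0.42, −0.44, −0.33 and −0.38. Without a filter ugt-28 and ugt-33 were at 0.00 and −0.02, and ugt-33 was at 0.00 with at least 1 CPM in 3 libraries. With libraries left out, ugt-4 ran from −0.11 to 0.28, ugt-28 from −0.04 to 0.13, ugt-33 from −0.11 to 0.16, ugt-48 from −0.08 to 0.24, ugt-58 from −0.10 to 0.18 and ugt-64 from −0.29 to 0.01. The summed FPKM kept its direction throughout. At 3 libraries an age, members under about 20 counts a library, such as ugt-37, ugt-40 and ugt-43, are the least certain.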
